A study of Bos taurus with 6 samples.

Results

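The miR-148 and miR-152 family is represented here by 3 miRNAs, bta-miR-148a, bta-miR-148b and bta-miR-152, taken by name from the 1028 bovine miRNAs listed in each library. The small RNA came from bovine granulosa cells in culture, which in the ovary line the follicle, nurse the oocyte and make estradiol. The cells came from small antral follicles of 3 to 6 mm of slaughterhouse ovaries and were grown for 24 h with 10% exosome-depleted serum. They were then kept for a further 24 h at 37 °C (control, n = 3 libraries) or at 42 °C (heat stress, HS, n = 3 libraries). The labels name no genetic change and no other agent in either group. How many animals contributed to a library is not given in the sources used here, so the spread between libraries may be partly technical. No miRNA was taken as a defining marker of granulosa cells, and protein-coding markers were not measured in these libraries.

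The members share a seed, the stretch near the 5′ end through which a miRNA pairs with its targets, and therefore overlap in the mRNAs they can repress. Their best known common target is the mRNA of DNMT1, the methyltransferase that copies DNA methylation onto the new strand after replication. Loss of these miRNAs is known to raise DNMT1 in several tumour types, and miR-148a is also known as a major miRNA of milk and liver. The members are made from separate genes, so a common seed does not bring a common promoter.

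By the RefSeq annotation (ARS-UCD2.0, whereas the reads were mapped to UMD3.1), the genes of the members lie on chromosomes 4, 5 and 19. MIR148B overlaps COPZ1 and MIR152 overlaps COPZ2, which encode alternative zeta subunits of the COPI coat that carries vesicles from the Golgi. MIR148A overlaps no protein-coding gene. The neighbourhoods nevertheless resemble each other. NFE2L3, HNRNPA2B1 and CBX3 were the nearest protein-coding genes on one side of MIR148A. NFE2, HNRNPA1 and CBX5 lie on one side of MIR148B, and NFE2L1 and CBX1 next to MIR152. NFE2, NFE2L1 and NFE2L3 encode related cap'n'collar transcription factors, and the CBX genes encode the heterochromatin protein 1 isoforms. The transcripts of these neighbours were not measured here.

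The further family names bta-miR-148c and bta-miR-148d were also listed and had 0 reads in all 6 libraries. MIR148D overlaps MIR148A and MIR148C overlaps MIR152 in the annotation. A count of 0 allows up to 3 reads per library, or 0.639 to 1.46 normalised CPM depending on the library. For bta-miR-148d this limit was at most 0.113% of the reads of bta-miR-148a, and for bta-miR-148c at most 0.196% of those of bta-miR-152. The level of a miRNA is given throughout as TMM-normalised CPM, in which reads are counted relative to a library size adjusted by the trimmed mean of M-values. Each read was counted as 1 mature miRNA, and the levels were not divided by length. How efficiently each miRNA was captured was not measured, so levels compare reads rather than molecules.

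All 3 members were readily detected, and in every library bta-miR-148a was the highest and bta-miR-152 the lowest. Averaged over the 6 libraries bta-miR-148a had 1860 normalised CPM, bta-miR-148b 1446 and bta-miR-152 938.3. They ranked 55, 68 and 80 among the 755 miRNAs with at least 1 read. Their nearest neighbours in level were bta-miR-335 and bta-miR-423-5p for bta-miR-148a, at 2012 and 1827 normalised CPM, bta-miR-199a-3p and bta-miR-574 for bta-miR-148b, at 1471 and 1376, and bta-miR-15a and bta-miR-185 for bta-miR-152, at 938.6 and 913.4. The members together held 0.329% to 0.521% of the reads of a library. Between 1532 and 10472 reads stood behind each value, which gives a counting error of 0.977% to 2.55%. The coefficient of variation between libraries of a group was 6.92% to 28.1%.

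Control replicates 1, 2 and 3 held bta-miR-148a at 1297, 2275 and 2178 normalised CPM. The HS replicates held it at 1889, 1481 and 2041 in the same order. Control replicate 1 was the lowest of the 6 libraries, control replicates 2 and 3 were the highest, and the HS libraries lay between them, so the groups overlapped. Group means were 1916 ± 539 for control and 1804 ± 289 for HS (SD, n = 3 each).

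For bta-miR-148b the control libraries had 1293, 1830 and 1492 normalised CPM and the HS libraries 1428, 1197 and 1434. The HS values fell within or just below the control range. Group means were 1538 ± 272 for control and 1353 ± 135 for HS (SD, n = 3 each).

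The level of bta-miR-152 was the steadiest, with 748.0, 1037 and 971.5 normalised CPM in control and 944.0, 899.6 and 1030 in HS cells. Every HS value lay inside the control range. Group means were 918.8 ± 152 for control and 957.9 ± 66.3 for HS (SD, n = 3 each). The summed level of the family was 3338 to 5142 normalised CPM in control and 3578 to 4505 in HS cells, again with overlap.

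**Figure D1:**
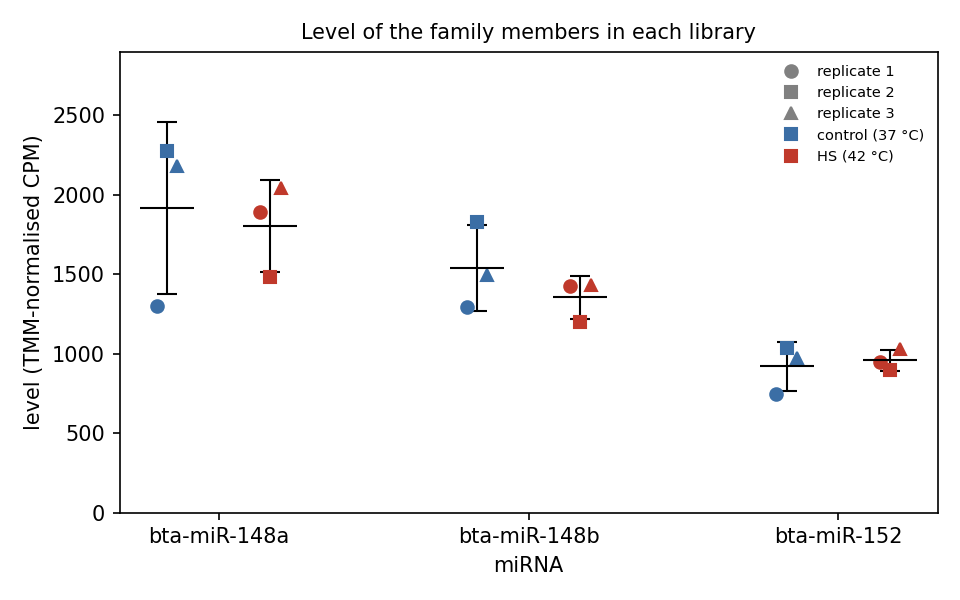
Level of each family member in each library, in TMM-normalised CPM on a linear axis. Points are libraries (shape gives the replicate number), and the bar and whiskers give the group mean and SD (n = 3). The groups overlap for all 3 members, and control replicate 1 lies lowest for bta-miR-148a (1297) and bta-miR-152 (748.0).

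To ask whether HS altered the family, the members were read from a limma fit over all 365 miRNAs that passed the filter on low reads. The study called a miRNA when its adjusted p was 0.2 or less and its log2 fold change was 1 or more in size. The study's own calls came from edgeR. With this rule applied to the limma fit, 0 of 3 members were called, where 3.01% of the tested miRNAs were. Without the fold minimum 0 of 3 members passed, against 7.12% of those tested, and at an adjusted p under 0.05 again 0 of 3, against 2.19%. The 26 miRNAs behind that 7.12% became 8 without HS replicate 2, 9 without HS replicate 3, 12 without control replicate 3, 13 without HS replicate 1, and 27 and 29 without control replicates 1 and 2. In limma 0 of 3 had an unadjusted p under 0.05, against 14.5%, and the groups did not overlap for 0 of 3, against 20% of all tested. The edgeR quasi-likelihood test, DESeq2 and limma-voom each gave 0 of 3 at both an adjusted p of 0.2 and an unadjusted p of 0.05. At the adjusted p of 0.2 the shares of all tested miRNAs were 6.85% by edgeR, 7.44% by DESeq2 (of the 336 to which it gave an adjusted p) and 6.58% by limma-voom, and at the unadjusted p 13.7%, 13.4% and 14.8%. With 3 members, a count of 0 is close to these shares and is no result about the family.

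The log2 fold change (HS over control, on log2 of the level plus 1) was -0.057 ± 0.245 for bta-miR-148a (SE, limma adjusted p = 0.959). It was -0.18 ± 0.164 for bta-miR-148b (limma adjusted p = 0.744) and 0.072 ± 0.159 for bta-miR-152 (limma adjusted p = 0.947). As ratios of HS to control, the 95% intervals ran from 0.643 to 1.44 for bta-miR-148a, from 0.677 to 1.16 for bta-miR-148b and from 0.809 to 1.36 for bta-miR-152. Changes within these bounds, in either direction, were compatible with the 3 libraries a group. The median log2 fold change of the members was -0.057, beside -0.0015 over all tested miRNAs, where 50.4% were below 0.

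**Figure D2:**
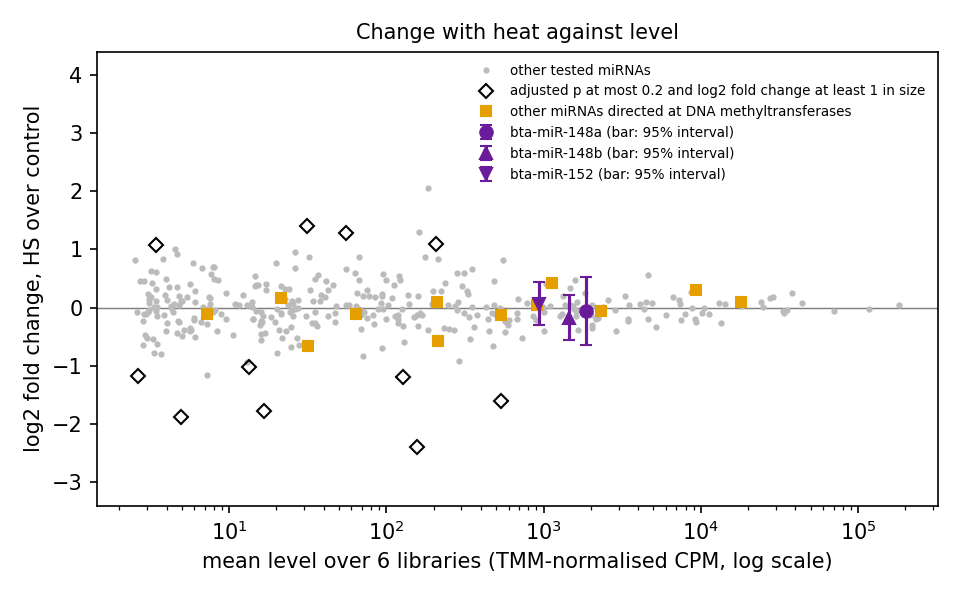
Log2 fold change (HS over control) against mean level over 6 libraries (normalised CPM, log axis) for the 365 tested miRNAs. Purple symbols are the family members with 95% intervals, and orange squares the other miRNAs directed at DNA methyltransferases. Open diamonds are the 11 miRNAs that passed the study's threshold in the limma fit, not the study's own calls. The members lie near 0 and each interval spans 0.

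The comparison depended on single libraries, and for bta-miR-148a and bta-miR-152 the log2 fold change moved most without control replicate 1. This library had the fewest miRNA reads, 2076239 against up to 4590971 in the others. By the study's mapping summary, control replicate 1 did not have the fewest reads past quality control, but the smallest share of them mapped to annotated miRNAs. Relative to the mean of the other control libraries on the log2 scale, it was 1.72-fold lower for bta-miR-148a, 1.28-fold lower for bta-miR-148b and 1.34-fold lower for bta-miR-152, whereas the median difference over all tested miRNAs was 0.0010 log2 units. Of the tested miRNAs, 8.49% lay lower still than bta-miR-148a in this library, 24.4% lower than bta-miR-148b and 20% lower than bta-miR-152. When it was dropped, log2 fold changes were -0.32, -0.29 and -0.070 for bta-miR-148a, bta-miR-148b and bta-miR-152, with limma adjusted p-values of 0.373, 0.384 and 0.860. The sign of bta-miR-152 thus turned. That of bta-miR-148a turned to positive without control replicate 2 (0.089), without control replicate 3 (0.057) or without HS replicate 2 (0.079). Among the members only bta-miR-148b kept a negative sign whichever of the 6 libraries was dropped. Its log2 fold change ran from -0.29 without control replicate 1 to -0.043 without control replicate 2.

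**Figure D3:**
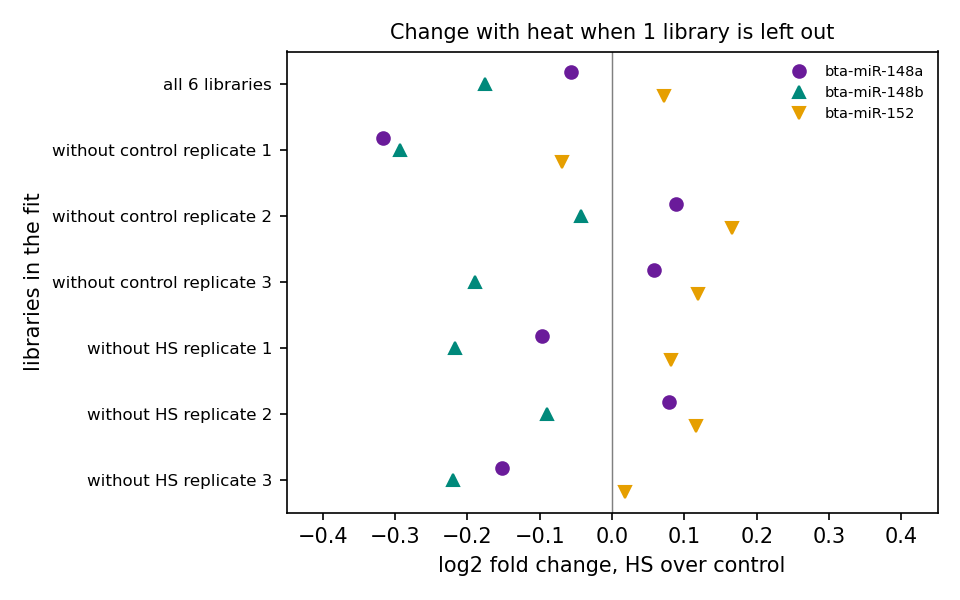
Log2 fold change (HS over control) of each member in the fit of all 6 libraries and in the fits that each left out 1 library. Points of bta-miR-148b stay below 0 throughout, whereas those of bta-miR-148a range from -0.32 to 0.089 and those of bta-miR-152 from -0.070 to 0.17.

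Marker miRNAs of other cell types are given beside this because some also stood apart in control replicate 1. The summed level of stromal markers (miR-143, miR-145, miR-199a and miR-214; 5 of 5 passed the filter) was 1324 normalised CPM there, the lowest of a control range that reached 2083, and 2008 to 2192 in HS cells. Most of this sum was bta-miR-199a-3p, at 1319 ± 353 for control and 1622 ± 70.4 for HS (SD, n = 3 each). Fitted log2 fold changes were 0.34 for it, 0.29 for bta-miR-199a-5p and 0.47 for bta-miR-214, but -0.12 for bta-miR-143 and -0.19 for bta-miR-145 (limma adjusted p = 0.463 to 0.954). Muscle markers (miR-1, miR-133a and miR-206; 3 of 3) summed to 245.1 there, the top of a control range from 55.2, and to 61.1 to 199.3 in HS cells. Leukocyte markers (miR-142, miR-150 and miR-223; 4 of 4) summed to 700.2 to 842.7 in control and 613.9 to 749.2 in HS cells, highest in control replicate 1. Endothelial miR-126 (2 of 2 arms) summed to 228.1 to 351.6 and 130.8 to 265.0, epithelial markers (miR-200a, miR-200b, miR-200c, miR-141 and miR-429; 4 of 5) to 60.5 to 95.6 and 49.8 to 87.0, and hepatocyte miR-122 to 17.3 to 71.8 and 20.4 to 72.0. Within the control group, replicate 1 held the lowest epithelial sum and the highest hepatocyte and erythroid sums. Of the erythroid markers only miR-486 passed the filter, at a summed 12.5 to 52.7 in control and 20.9 to 62.7 in HS cells, while miR-451 had at most 8 reads and miR-144 at most 1. No marker list held a miRNA with an adjusted p of at most 0.2 or an unadjusted p under 0.05, by limma or by the other tests above. DESeq2 gave no adjusted p for bta-miR-206. Their part in the levels of the family was not tested.

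Because the members were lower or higher together in a library, their ratios were compared within libraries, which removes the scaling between libraries. The alignment tolerated a mismatch, and how reads fitting several similar miRNAs were shared is not given. The ratios and shares depend on that assignment. bta-miR-148a exceeded bta-miR-148b in 6 of 6 libraries, by 1.0026-fold to 1.46-fold. In control replicate 1 they were almost equal, at 2656 and 2649 reads, or 0.128% of the library each with overlapping exact 95% intervals (0.123% to 0.133%). bta-miR-148a exceeded bta-miR-152 by 1.65-fold to 2.24-fold and bta-miR-148b exceeded it by 1.33-fold to 1.77-fold. The levels of bta-miR-148b and bta-miR-152 did not overlap over the 6 libraries, whereas those of bta-miR-148a and bta-miR-148b did.

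The log2 ratio of bta-miR-148b to bta-miR-152 was 0.79, 0.82 and 0.62 for control replicates 1, 2 and 3, and 0.60, 0.41 and 0.48 for the HS replicates. Every HS value was thus below every control value, with means of 0.74 ± 0.108 and 0.50 ± 0.0936 (SD, n = 3 each). The difference of -0.25 ± 0.0827 (SE) corresponds to a ratio 0.843 times that of control cells. The exact two-sided permutation test gave p = 0.1, the smallest that 3 against 3 can give, and 0.3 after Benjamini-Hochberg adjustment over the 3 pairs. Ratios that did not overlap between groups made up 21.3% of all 66430 pairs of tested miRNAs.

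The log2 ratio of bta-miR-148a to bta-miR-148b was 0.29 ± 0.272 for control and 0.41 ± 0.101 for HS libraries, and that of bta-miR-148a to bta-miR-152 was 1.03 ± 0.206 and 0.90 ± 0.158 (SD, n = 3 each). Both overlapped between groups. The differences of 0.12 ± 0.167 and -0.13 ± 0.150 (SE) had exact permutation p-values of 0.7 and 0.5, or 0.7 for each after adjustment. For bta-miR-148a to bta-miR-152 the difference was -0.25 without control replicate 1 and -0.037 without HS replicate 2. For bta-miR-148a to bta-miR-148b it was -0.023 without control replicate 1. As shares of the family's reads, bta-miR-148a took 43.3% ± 4.11 for control and 43.7% ± 2.03 for HS, bta-miR-148b 35.5% ± 3.30 and 32.9% ± 0.955, and bta-miR-152 21.2% ± 1.14 and 23.4% ± 1.56 (SD, n = 3 each).

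**Figure D4:**
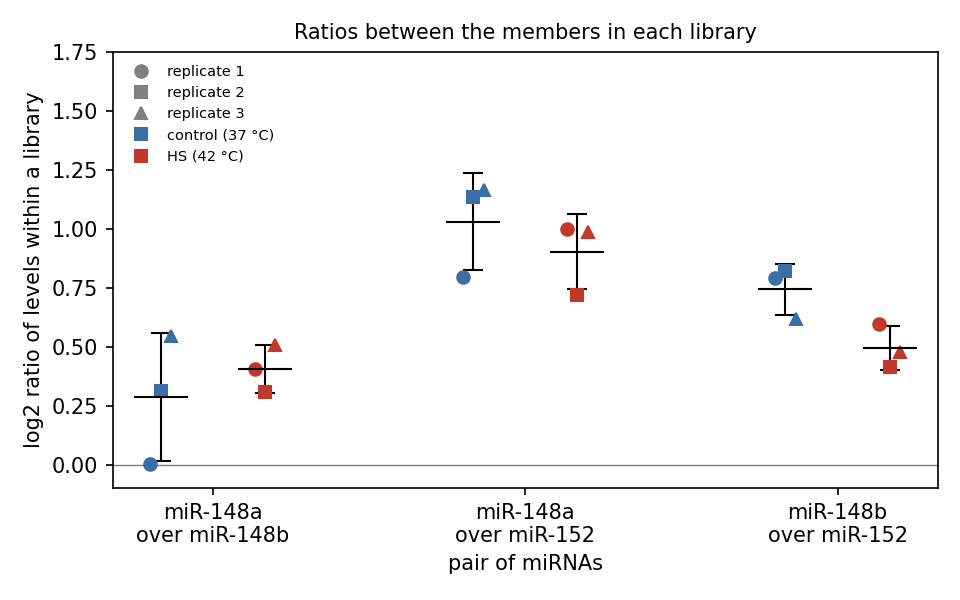
Log2 ratio of the levels of each pair of members within a library. Points are libraries (shape gives the replicate number), and the bar and whiskers give the group mean and SD (n = 3). The groups separate only for bta-miR-148b over bta-miR-152, at 0.62 to 0.82 in control and 0.41 to 0.60 in HS cells.

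The order of the libraries was nearly the same for each member. Control replicate 2 was highest for all 3 and HS replicate 1 ranked 4 for all 3. Over the 6 libraries Pearson's r of the log2 levels was 0.919 between bta-miR-148a and bta-miR-152, 0.821 between bta-miR-148a and bta-miR-148b, and 0.650 between bta-miR-148b and bta-miR-152. After removal of the group means these values were 0.970, 0.879 and 0.873. They describe 6 points that share library and depth. Nor were the members each other's closest match, since bta-miR-152 ranked 13 among the 364 other tested miRNAs in likeness to bta-miR-148a, and bta-miR-148b ranked 35.

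The miRNAs most like bta-miR-148a by Pearson's r over 6 libraries were bta-miR-32 (0.988), bta-miR-106b (0.983) and bta-miR-101 (0.981), the last described as a regulator of the histone methyltransferase EZH2 and of DNMT3A. Control replicates 1, 2 and 3 held bta-miR-32 at 22.9, 44.8 and 42.1 normalised CPM and the HS replicates at 36.5, 24.2 and 41.1. As for bta-miR-148a, control replicate 1 and HS replicate 2 were low and the rest higher. Those most like bta-miR-148b were bta-miR-507b (0.984), bta-miR-6519 (0.958) and bta-miR-507-3p (0.952), and those most like bta-miR-152 were bta-miR-10162-5p (0.991), bta-miR-2285aj-5p (0.986) and bta-miR-21-3p (0.968). Of these 9, bta-miR-6519 and bta-miR-10162-5p averaged only 3.00 and 5.03 normalised CPM, close to the counting floor.

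Other miRNAs described as acting on DNA methyltransferases were examined as a list of 13 names present in the libraries. Of these, 12 passed the filter and bta-miR-377 was listed at 0 in every library. Of the 12, 0 reached an adjusted p of 0.2 and 0 an unadjusted p under 0.05, by limma and also by the edgeR quasi-likelihood test, DESeq2 and limma-voom. Over all tested miRNAs limma gave 7.12% and 14.5%, so a count of 0 among 12 was near the background. Their median log2 fold change was -0.0055, beside -0.0015 over all tested miRNAs. bta-miR-29a, whose family represses DNMT3A and DNMT3B, the enzymes of new methylation, averaged 17466 ± 2064 normalised CPM for control and 18563 ± 1134 for HS (SD, n = 3 each), far above the 3 members. bta-miR-342, described as a DNMT1 regulator, had 8595 ± 3014 and 10145 ± 262. bta-miR-140 had 2368 ± 278 and 2284 ± 201, and bta-miR-29b 1007 ± 433 and 1271 ± 355. bta-miR-185, also described as a DNMT1 regulator and the next miRNA below bta-miR-152 in level, had 902.5 ± 88.3 and 924.3 ± 35.6. The log2 fold changes of these 5 ran from -0.05 to 0.42, with limma adjusted p-values of 0.726 to 0.959. The largest fitted changes on the list were those of both arms of miR-126, described as a DNMT1 regulator and counted above as an endothelial marker. bta-miR-126-3p averaged 254.4 ± 57.2 normalised CPM for control and 173.9 ± 54.3 for HS (log2 fold change -0.57, limma adjusted p = 0.418). The other arm, bta-miR-126-5p, averaged 38.1 ± 4.89 and 25.8 ± 12.9 (log2 fold change -0.66, limma adjusted p = 0.481). These arms were chosen after their values were seen. The summed level of the list was 29280 to 34510 in control and 32974 to 34835 in HS cells, against 3338 to 5142 and 3578 to 4505 for the family.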

How the data were processed

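Libraries of 100 ng total RNA were made with a kit that ligates unique molecular identifiers and amplified by 16 PCR cycles. After adapter trimming with cutadapt 1.11 the authors merged reads of 1 identifier, aligned them to UMD3.1 with Bowtie2 2.2.2, counted miRBase miRNAs and applied TMM normalisation in edgeR. How reads fitting several similar miRNAs were shared is not given in the sources used here. The deposited signal is TMM-normalised CPM, 1 value per miRNA and library. In each library 100% of values were whole multiples of 1 step (tolerance 0.01 of a read), so reads were recovered, at 2076239 to 4590971 per library. Of 1028 miRNAs, 365 passed filterByExpr of edgeR 4.0.16. limma 3.58.1 with a mean-variance trend (R 4.3.3) was fitted to log2(normalised CPM + 1), with Benjamini-Hochberg adjustment over the miRNAs tested. Ratios were compared by exact permutation (scipy 1.17.1, Python 3.11.15). DESeq2 1.42.0 served as an alternative. The exact intervals on shares of reads and the 3-read floor cover counting error only. Intervals of log2 fold changes and of ratios of HS to control came from the limma fit and reflect the spread between libraries.

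Members, lists and thresholds were chosen with earlier results of these data known. Named miRNAs were the members, their nearest neighbours in level, the 3 most correlated with each, and the most abundant of the list on DNA methyltransferases. Marker miRNAs were named as members of their lists. The miR-126 arms, bta-miR-377 and the single stromal markers lie outside this rule or past its limit of 4 per list and were named after their values were seen. Mature sequences were not used here.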

Additional observations from a re-analysis of the deposited data

How the results depend on the processing

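Of 57 comparisons of a member's change under an alternative, none passed an adjusted p of 0.2 and 5 changed sign. With upper quartile factors, which moved the median log2 fold change of all tested miRNAs to -0.18, bta-miR-148a was at -0.24, bta-miR-148b at -0.36 and bta-miR-152 at -0.11. With 1 library dropped at a time the log2 fold change ran from -0.32 to 0.089 for bta-miR-148a, from -0.29 to -0.043 for bta-miR-148b and from -0.070 to 0.17 for bta-miR-152, and the heat change of the log2 ratio of bta-miR-148a to bta-miR-148b ran from -0.023 to 0.25. Adjusted p-values over all alternatives were 0.373 to 0.990 for bta-miR-148a, 0.384 to 0.989 for bta-miR-148b and 0.730 to 0.982 for bta-miR-152. Against 8 miRNAs at an adjusted p under 0.05, upper quartile factors gave 5, the DESeq2 Wald test 20, and dropping a library 2 to 12; the cause was not tested. With no filter on low reads, 14 of 755 miRNAs had an adjusted p of at most 0.2, against 26 of 365. Same-numbered libraries deviated from their group means with correlations of 0.421, -0.117 and 0.616, so the numbers were not taken to pair the samples. With this replicate block, limma gave -0.057, -0.18 and 0.072 for bta-miR-148a, bta-miR-148b and bta-miR-152 (adjusted p = 0.936, 0.718 and 0.895), and 10 and 6 miRNAs at the 2 thresholds against 11 and 8. Paired by number, the differences of the log2 ratio of bta-miR-148b to bta-miR-152 were -0.19, -0.41 and -0.14 (exact sign-flip test, p = 0.25, the smallest possible). By Spearman's rho 5 of the 9 most correlated miRNAs stayed among the highest 3 of their member.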
